A study of Mus musculus with 20 samples.

Results

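Genes of the mitotic cell cycle were examined in the neocortex (NCX) and hippocampus (HP) of mice that lack the amyloid precursor protein (APP) family in forebrain neurons. The list holds 38 of the 24421 genes counted, chosen by symbol, and 36 of them had at least 1 count in all 20 libraries. It falls into 7 genes that are cyclins or Cdk1, 10 mitotic kinases, checkpoint genes and genes of the anaphase-promoting complex, 10 genes of the spindle, kinetochore and cytokinesis, 4 of chromatin and transcription, and 7 of DNA replication and nucleotide supply. The name is therefore wider than mitosis, since the replication genes and the E cyclins Ccne1 and Ccne2 act before it. In cTKO mice, floxed App, Aplp1 and Aplp2 (fApp/fApp; fAplp1/fAplp1; fAplp2/fAplp2) are deleted by a Camk2a-Cre transgene, which is active in excitatory neurons of the forebrain after birth, so glia, interneurons and dividing progenitors keep the genes. Controls are littermates that carry the same floxed alleles without Cre, although the labels call them wild type. All mice were 3 months of age, of both sexes and on a hybrid background of C57BL/6J and 129, with 5 libraries for each genotype and region. The paper took both regions from 5 mice of each genotype, so the NCX and HP libraries do not come from separate animals. The libraries are bulk RNA, so fewer cells of a type and less RNA in each cell cannot be told apart.

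A dividing cell makes these genes in waves. Minichromosome maintenance (MCM) proteins, Pcna, Rrm2 and Tyms serve DNA synthesis, and the later genes condense the chromosomes, build the spindle and separate the daughters. Foxm1 is the transcription factor that, with B-Myb and the MuvB complex, switches on the late genes, while the same complex holds them silent in resting cells as the DREAM complex. Mature neurons do not divide. In the adult forebrain the dividing cells are mainly progenitors of the dentate gyrus and of the ventricular wall, oligodendrocyte precursors, and some microglia and endothelial cells.

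Promoters of the late genes are known for a cell cycle gene homology region (CHR), the site of MuvB, and for CCAAT boxes, the site of NF-Y. RefSeq promoter windows of 300 bases on GRCm38.p6, from 250 bases before to 50 bases after a start, were matched for 31 of the 38 members, with 33 windows in all. Foxm1, Tpx2, Dlgap5, Ccna2, Aurkb, Ccne2 and Kif20a were not matched. The CHR letters TTTGAA, searched on both strands, were in 57.6% of the member windows and in 17.9% of all 32851 windows. CCAAT, on both strands, was in 84.8% and 37.4%, and 54.5% of the member windows held 2 or more against 11.7% of all windows. Both motifs were together in 54.5% of the member windows and in 6.95% of all. CHR and CCAAT matches do not overlap in the stretches shown, and a match is a description of the letters and not a bound site. CHR letters were in 7 of 9 windows of mitotic kinases and checkpoint genes but in 1 of 7 windows of replication genes, which is Mcm2. The letters TTCCCGC, 1 form of an E2F site, were in 6.06% of the member windows and 4.6% of all, on both strands. Other forms of the site were not searched or marked, so these shares do not give the frequency of E2F sites. The 120 bases before the start are shown for 6 members that carry the plainest arrangements or on which the results turn, 5′ to 3′ on the strand of the gene, with CHR and CCAAT letters of either strand in capitals.
Top2a: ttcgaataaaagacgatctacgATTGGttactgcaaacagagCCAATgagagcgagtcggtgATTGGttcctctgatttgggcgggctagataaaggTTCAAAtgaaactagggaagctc
Cdk1: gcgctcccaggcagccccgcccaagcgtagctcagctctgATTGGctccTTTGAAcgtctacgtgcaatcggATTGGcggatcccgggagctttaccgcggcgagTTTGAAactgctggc
Ccnb2: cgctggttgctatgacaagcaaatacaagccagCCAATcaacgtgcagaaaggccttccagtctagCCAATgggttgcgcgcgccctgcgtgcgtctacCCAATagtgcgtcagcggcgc
Cdc20: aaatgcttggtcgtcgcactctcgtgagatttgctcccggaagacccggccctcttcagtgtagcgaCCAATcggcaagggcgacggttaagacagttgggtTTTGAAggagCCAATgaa
Mki67: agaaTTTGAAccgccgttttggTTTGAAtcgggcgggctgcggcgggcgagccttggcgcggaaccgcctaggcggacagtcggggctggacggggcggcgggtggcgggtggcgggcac
Mcm6: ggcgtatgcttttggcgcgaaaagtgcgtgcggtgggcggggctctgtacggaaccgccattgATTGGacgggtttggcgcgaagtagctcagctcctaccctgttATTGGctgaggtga
These stretches lie on the minus strand at chr11:99024190-99024309, chr10:69352913-69353032, chr9:70421555-70421674, chr4:118437344-118437463, chr7:135716380-135716499 and chr1:128359706-128359825, in the order shown. Counted back from the start, within the stretches, Top2a has a CHR at -23 behind 3 CCAAT boxes, Cdk1 has CHRs at -71 and -15, and Cdc20 has one at -18. Ccnf, not shown, has CHR letters at -14 and CCAAT at -107. The 3 CCAAT boxes of Ccnb2 are spaced by 33 bases each, and its CHR letters lie outside the stretch shown. Mki67 carries 2 CHRs and no CCAAT box in its stretch, and Mcm6 carries 2 CCAAT boxes and no CHR. The whole window of 300 bases holds 3 CCAAT boxes for Mki67, and 2 CHRs and 6 CCAAT boxes for Top2a.

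The deleted genes separated the genotypes in every library. App lay at 336 to 462 CPM (counts scaled to the size of the library, with sizes adjusted by the trimmed mean of M-values, TMM) in cTKO libraries and at 1371 to 1812 in controls, Aplp1 at 264 to 391 against 1129 to 1337, and Aplp2 at 234 to 295 against 495 to 834. Slc17a7 and Camk2a, markers of excitatory neurons, were high in all libraries, and Prox1 of dentate granule cells marked the HP libraries. Total counts ran from 12169474 to 25331954 per library, so that 3 counts, taken as the smallest level a library can show, correspond to 0.118 to 0.247 CPM, a limit that covers counting error only. The cTKO NCX library 5 and the cTKO HP library 4 stood apart from the rest: Hbb-y, an embryonic globin, was at 195 and 120 CPM there and at most at 0.812 in the other 18 libraries, and H19, an imprinted RNA of the embryo, was at 322 and 193 CPM and at most at 2.15 elsewhere. Of the 12 embryonic markers listed, 6 (Hbb-y, Hbb-bh1, Hba-x, H19, Col2a1 and Hoxb8) were higher in both of these libraries than in every other one. The sum of the list was 1062 and 646.5 CPM in the pair and 73.25 to 400.5 in the other 18, with Hoxa9 at 0 in all 20. Genotype results of the members are therefore given with and without these libraries.

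Adult levels of the cell cycle genes were low. Leaving the pair aside, the median CPM of a member over the libraries of a group ranged from 0.164 for Bub1 to 21.5 for Pcna in control NCX and from 0.157 for Bub1 to 31.99 for Pcna in control HP. The middle of the 38 medians was 1.44 CPM in control NCX, 1.39 in cTKO NCX, 1.48 in control HP and 1.86 in cTKO HP. Between 11 and 16 members had a median under 1 CPM in each group, and in control NCX 8 members had a library with 3 counts or fewer. Pcna had the highest median in each group, and Bub1, the lowest in controls, had 0 counts in control HP library 2, which allows a level of up to the 3-count limit.

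Summed over the 38 members, the level was 108.8 ± 10.98 CPM in control NCX (SD, n = 5) and 119.8 ± 10.52 in control HP. In cTKO NCX the sum was 218.6 ± 218.8 CPM, from 115.5 to 609.9, and without library 5 it was 120.8 ± 6.02 (n = 4), from 115.5 to 126.5. In cTKO HP it was 199.5 ± 160.6 CPM, from 119 to 486.6, and without library 4 it was 127.7 ± 6.33, from 119 to 133. The ratio of cTKO to control means was 2.01 in NCX and 1.66 in HP, and fell to 1.11 and 1.06 when these single libraries were left out. Thus 1 library in each region carried most of the difference in summed level. No test was made on the sum, because the members were chosen with results known.

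**Figure D1:**
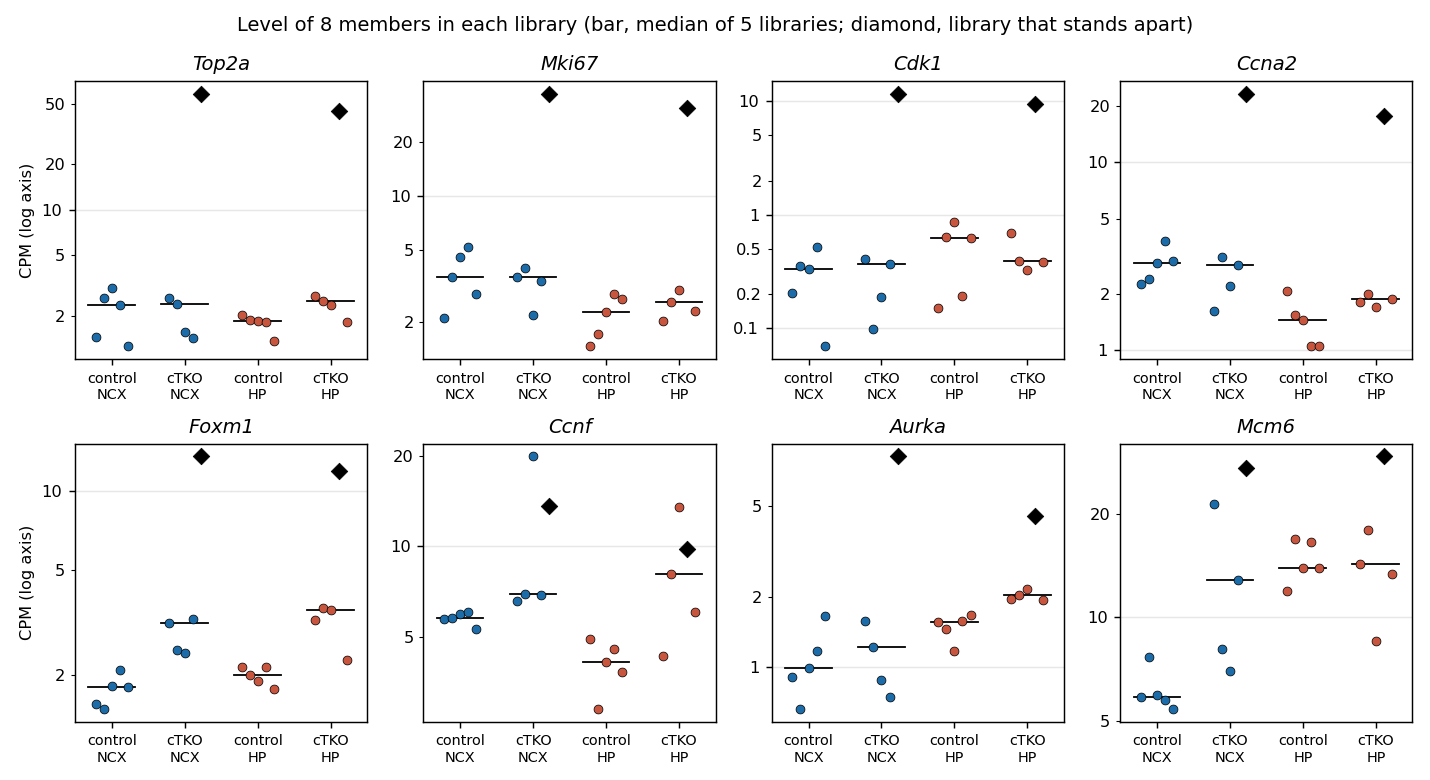
CPM of 8 members in each of the 20 libraries on log axes, by genotype and region; points are libraries in the order of their number, bars are the median of 5 libraries, and black diamonds are cTKO NCX library 5 and cTKO HP library 4. The diamonds are the highest libraries of Top2a, Mki67, Cdk1, Ccna2, Foxm1, Aurka and Mcm6 in each region, whereas Ccnf is highest in library 3 of each cTKO group.

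The members in cTKO NCX library 5 and cTKO HP library 4 followed one pattern. Set against the median of the other 4 cTKO libraries of the region, the median ratio over the members was 9.15 in the NCX library and 7.69 in the HP library, and 36 of 38 members were above all 4 others in each. The exceptions in both were Ccnf and Ccne1. A ratio above 5 was reached by 27 of 36 members in NCX and 22 of 37 in HP among genes with a median above 0.25 CPM, where 1.1% of 15358 and 0.789% of 15213 genes did so. The libraries were singled out by other genes, but the members were listed with this pattern known, so these counts are a description.

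By role, the ratio was highest for chromatin and transcription genes, with a median of 16.6 in NCX and 13.2 in HP, and lowest for replication genes, with 4.34 and 3.55. Top2a, the topoisomerase that untangles sister chromatids, was at 58.7 CPM in the NCX library and between 1.42 and 2.62 in the other 4. In HP it was at 44.9 against 1.82 to 2.71. These were ratios of 29.6 and 18.6. Mki67, which coats mitotic chromosomes, was at 36.9 CPM in NCX against 2.19 to 3.96 and at 30.6 in HP against 2.01 to 3.00. Both genes thus stood more than 10-fold over the median of the remaining libraries.

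Among the cyclins, the ratio was largest for Cdk1, the kinase that starts mitosis, at 11.7 CPM in the NCX library and 9.42 in the HP library, 41.9 and 24.3 times the median of the others. Those medians, 0.278 and 0.387 CPM, rest on few counts, and the ratios are correspondingly loose. Ccna2, the A cyclin of S phase and G2, was at 23.1 and 17.7 CPM, with ratios of 9.20 and 9.63. Ccne1, which drives entry into S phase, was at 19.6 CPM against 15.3 to 20.9 and did not stand out.

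Of the kinases and checkpoint genes, Aurkb of the chromosomal passenger complex reached 8.57 and 6.29 CPM, ratios of 32.7 and 29.7, and Bub1, a kinase of the spindle checkpoint, 9.39 and 6.72 CPM, ratios of 37.0 and 22.3. Bub1b, its partner at unattached kinetochores, was at 18.3 and 13.8 CPM, ratios of 10.8 and 8.41, and Plk1 at 11.8 and 8.57 CPM. Of the spindle genes, Kif20a, a kinesin of the central spindle, was at 17.2 and 11.1 CPM, ratios of 18.2 and 12.3. Tpx2, which activates Aurka on the spindle, was at 23.1 and 14.5 CPM, ratios of 7.22 and 4.88. Dlgap5, which stabilises spindle fibres, had ratios of 29.9 and 10.04, and Kif23 of the midzone 7.36 and 9.26.

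Replication genes, of which Pcna and the MCM genes were high in the other libraries too, had smaller ratios. Rrm2, the small subunit of ribonucleotide reductase, was at 15.8 and 14.0 CPM, ratios of 12.3 and 7.37. Tyms, which makes thymidylate, was at 10.9 and 8.28 CPM, ratios of 10.2 and 3.63. Pcna, the sliding clamp, was at 31.0 CPM in NCX against 18.2 to 24.9, and at 36.0 in HP against 24.9 to 30.3, ratios of only 1.37 and 1.28.

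The excess over the median of the other 4 libraries was lower in the HP library than in the NCX library for all 38 members, with a median HP to NCX quotient of 0.724. Across the members the excess CPM of the libraries gave Pearson's r = 0.978 and Spearman's rho = 0.953 (n = 38), and 0.928 and 0.944 without Top2a and Mki67. These are correlations across genes of single libraries, and genes are not independent replicates. The embryonic genes moved with them, and their part in the members' levels was not tested. Among all genes, the deviations of these libraries from their group means were correlated (r = 0.575), whereas libraries with the same number in the cTKO regions gave -0.0561 for number 4, -0.0696 for number 5 and 0.320 to 0.395 for numbers 1 to 3.

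**Figure D2:**
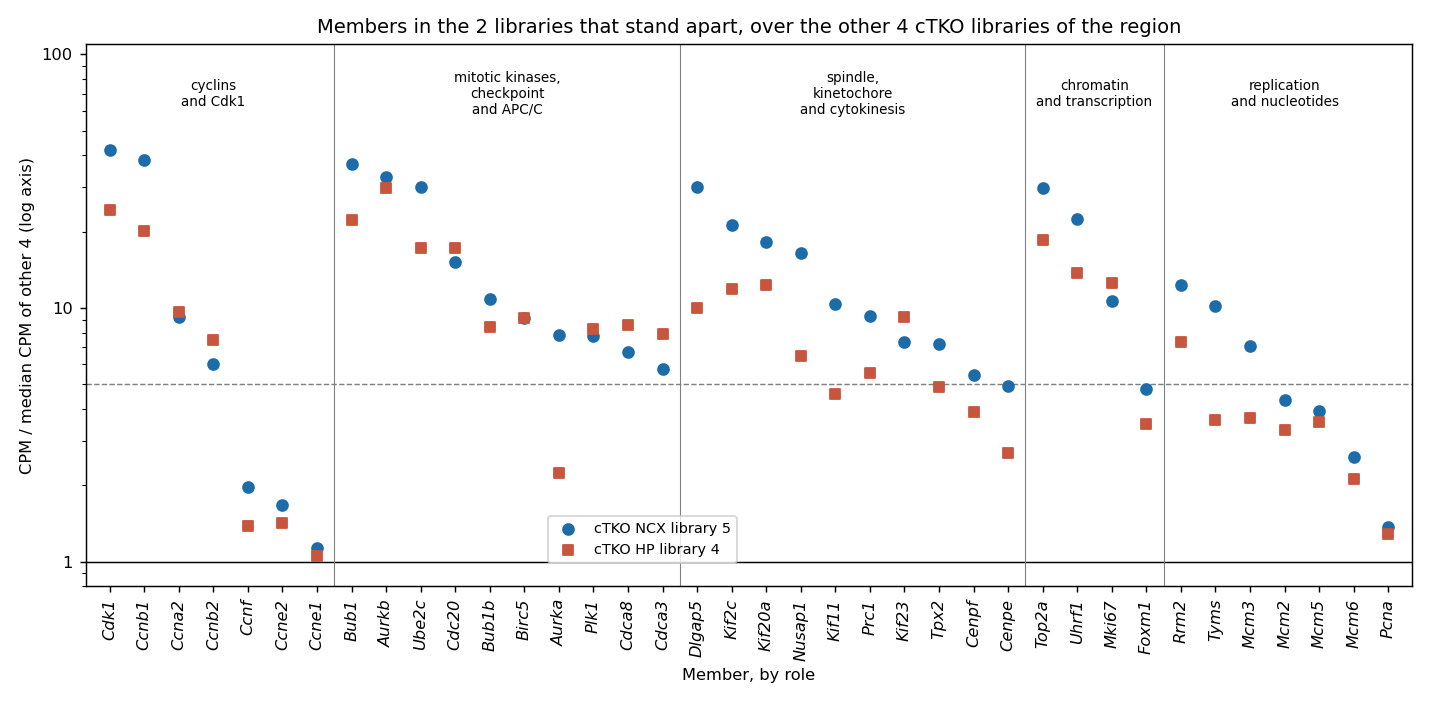
Ratio of each member's CPM in cTKO NCX library 5 (circles) and cTKO HP library 4 (squares) to the median of the other 4 cTKO libraries of the region, on a log axis and sorted by role; the solid line is 1 and the dashed line 5. The ratios run from 1.13 for Ccne1 to 41.9 for Cdk1 in NCX and from 1.06 for Ccne1 to 29.7 for Aurkb in HP.

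The loss of the APP family was compared with the controls in each region with edgeR's quasi-likelihood test fitted across all genes that exceeded 1 CPM in 5 or more of the 10 libraries, at a false discovery rate (FDR, Benjamini-Hochberg) of 0.05. In NCX, 25 of the 38 members passed the filter and 0 were called, where 0.188% of 13843 genes were. All 25 had a log2 fold change above 0, where 53.1% of the genes tested did, and 8 had an unadjusted p under 0.05 with a higher level in cTKO, where 5.57% did. Their median log2 fold change was 1.18, against 0.009 over all genes tested. Without library 5, 23 members were tested and 10 had a fold change above 0, where 49.8% of the genes did. Their median was -0.05, and 3 (Foxm1, Mcm6 and Ccnf) had an unadjusted p under 0.05 with a higher level, where 6.42% did. Again 0 were called, where 0.966% of the genes were. With all libraries DESeq2 called 2 members (Foxm1 and Mcm6), where it called 91 genes higher and 130 lower of 13786. The exact test of edgeR called 1 (Mcm6), where it called 82 genes higher and 81 lower of 13843. The likelihood ratio test of edgeR called the same member, where it called 84 genes higher and 83 lower.

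In HP, 25 members passed the filter and 0 were called, where 0.489% of 13702 genes were. A fold change above 0 was seen for 23, where 51.6% of the genes had one. An unadjusted p under 0.05 with a higher level in cTKO was seen for 13, where 6.13% of the genes had one. The median log2 fold change was 0.86 and fell to 0.16 without library 4, when 23 members were tested. Of these 16 were above 0, where 49.0% of the genes were, and 5 had an unadjusted p under 0.05 with a higher level, where 5.96% did. Again 0 were called, where 0.484% of the genes were. With all libraries DESeq2 called Ccnf and Foxm1, where it called 182 genes higher and 149 lower of 13664. The exact and likelihood ratio tests called Ccnf and Uhrf1. Of 13702 genes they called 141 and 142 higher, and 117 lower in each. Uhrf1, a reader of DNA methylation at replication forks, is named here after its values were seen. It was at 0.603, 0.214, 0.678, 0.767 and 1.26 CPM in HP controls and at 1.69, 1.39, 1.07, 18.98 and 1.36 in cTKO libraries 1 to 5, so that cTKO library 3 fell among the controls. All 5 cTKO libraries but only 1 control exceeded 1 CPM, so Uhrf1 passed the filter through the group where it was high. Its calls and fold changes are therefore a description. Its log2 fold change was 2.81 ± 0.87 (quasi-likelihood FDR 0.216) and 0.98 ± 0.36 without library 4 (FDR 0.299). DESeq2 gave no p to 14 of the 25 members in NCX and to 9 of the 25 in HP, and gave one to each member tested without library 5 or 4. Without the filter on low levels the quasi-likelihood test covered all 38 members in each region and called 0. An unadjusted p under 0.05 with a higher level in cTKO was seen for 22 members in NCX and 25 in HP. Of all genes, 960 of 19279 in NCX and 1109 of 19268 in HP had one. Without library 5 or 4 it was seen for 5 and 6 members, where 1051 and 1039 of 19137 genes had one.

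**Figure D3:**
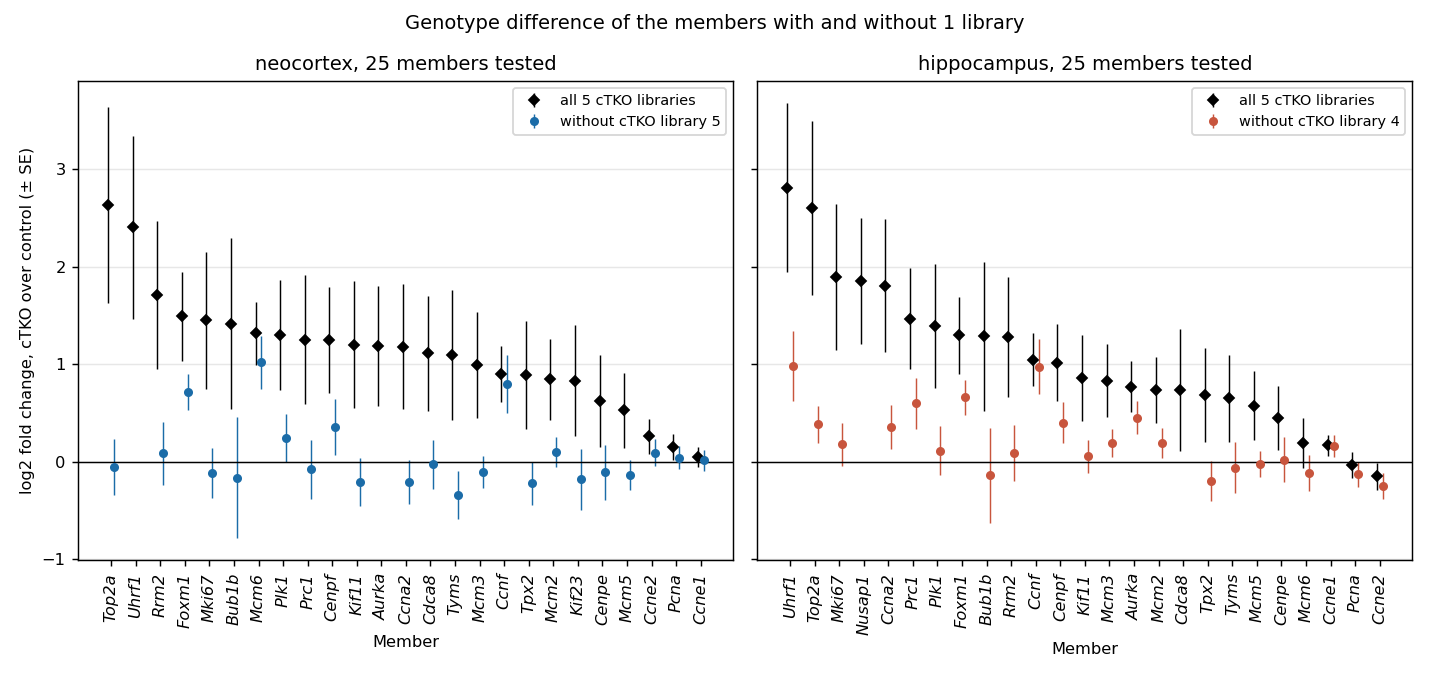
Log2 fold change of cTKO over control with its standard error for the 25 members tested in NCX (left) and HP (right), with all 5 cTKO libraries (diamonds) and without library 5 or 4 (circles). In NCX the estimates gather around 0 without the library (median -0.05) except for Mcm6, Ccnf and Foxm1, and in HP Uhrf1, Ccnf and Foxm1 are highest without library 4. Uhrf1 passed the filter in HP through its cTKO libraries.

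Foxm1 was the member whose genotypes did not overlap in either region. In NCX it was at 1.56, 1.49, 1.82, 2.09 and 1.81 CPM in controls and at 3.16, 2.496, 2.44, 3.27 and 13.5 in cTKO libraries 1 to 5. In HP it was at 2.16, 2.01, 1.90, 2.16 and 1.78 CPM in controls and at 3.25, 3.61, 3.54, 11.9 and 2.29 in cTKO. Every cTKO library was above every control of its region, with and without the libraries that stood apart. The log2 fold change was 1.49 ± 0.46 (SE) in NCX, with a quasi-likelihood FDR of 0.247, and 1.30 ± 0.39 in HP, with an FDR of 0.209. Without library 5 or 4 it was 0.71 ± 0.19 (FDR 0.102) and 0.66 ± 0.18 (FDR 0.156), which did not pass the threshold. In NCX without library 5 Foxm1 was called by edgeR's exact test (FDR 0.0269) and likelihood ratio test (FDR 0.0209) but not by DESeq2 (FDR 0.0692), which called it with all libraries (FDR 0.0369). In HP DESeq2 called it with all libraries (FDR 0.0393) and not without library 4 (FDR 0.0723). Exact two-sided permutation tests of log2 CPM gave p = 0.00794 in each region, the smallest that 5 against 5 allows, and 0.0159 without the library, the smallest that 4 against 5 allows. These p-values are not adjusted over the 38 members. Foxm1 was chosen with results of these data known, so they only restate the lack of overlap. In the annotation, Foxm1 (chr6:128362967-128376146, plus strand) overlaps Tex52 and Gm44596 on the same strand, and reads of the overlap could not be assigned to one of them here.

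Ccnf, the F-box cyclin that limits centrosome duplication and nucleotide pools, was higher in cTKO in libraries other than those that stood apart. In NCX, controls were at 5.70, 5.78, 5.95, 6.01 and 5.28 CPM and cTKO libraries at 6.55, 6.95, 19.9, 6.86 and 13.6. In HP, controls were at 4.92, 2.87, 4.11, 4.56 and 3.83 CPM and cTKO libraries at 4.32, 8.10, 13.5, 9.80 and 6.03. The genotypes did not overlap in NCX, while in HP cTKO library 1 fell among the controls. Library 3 was the highest in both regions, and there Top2a was at 1.56 CPM in NCX and 2.35 in HP, among the other libraries. The log2 fold change was 0.90 ± 0.28 in NCX (FDR 0.272) and 1.05 ± 0.27 in HP (FDR 0.130) by the quasi-likelihood test, and 0.79 ± 0.29 (FDR 0.278) and 0.97 ± 0.28 (FDR 0.189) without library 5 or 4. Without cTKO NCX library 3 the NCX value was 0.56, a drop by more than 1.5 times (FDR 0.244), and without cTKO HP library 3 the HP value was 0.81 (FDR 0.187). The exact permutation p was 0.00794 in NCX and 0.0238 in HP, and 0.0159 and 0.0476 without library 5 or 4. These are unadjusted too, and Ccnf was also chosen with results known.

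Aurka, the centrosomal kinase of spindle assembly, is named because its HP libraries did not overlap, after its values were seen. In HP it was at 1.56, 1.46, 1.18, 1.58 and 1.68 CPM in controls and at 1.97, 2.05, 2.18, 4.50 and 1.95 in cTKO. The 4 cTKO libraries other than library 4 thus lay within 1.95 to 2.18 CPM, all above the controls. The log2 fold change was 0.77 ± 0.26 (quasi-likelihood FDR 0.261) and 0.45 ± 0.17 without library 4 (FDR 0.326). In NCX the genotypes overlapped, and without library 5 the means were 1.10 ± 0.378 CPM in cTKO (SD, n = 4) and 1.08 ± 0.379 in controls (n = 5). Genes whose cTKO libraries were all above the controls made up 0.795% of the genes tested in NCX and 1.76% in HP, and 2.35% and 2.89% without the library that stood apart. Of the 38 members, 2 did so in NCX (Ccnf and Foxm1) and 2 in HP (Aurka and Foxm1), in both cases with and without that library.

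Mcm6, a subunit of the replicative helicase, had the smallest p of the members in NCX. Controls were at 5.87, 7.69, 5.95, 5.75 and 5.42 CPM, and cTKO libraries at 21.3, 8.12, 6.999, 12.9 and 27.1. Libraries 1, 4 and 5 were high, library 2 was just above the highest control and library 3 fell among the controls. The log2 fold change was 1.32 ± 0.32 (quasi-likelihood FDR 0.134) and 1.02 ± 0.27 without library 5 (FDR 0.105). DESeq2 gave an FDR of 0.0428 and, without library 5, 0.00996. Without library 5 the other MCM genes had log2 fold changes of 0.10 ± 0.15 for Mcm2, -0.11 ± 0.16 for Mcm3 and -0.14 ± 0.15 for Mcm5. In HP, Mcm6 was at 14.64 ± 2.08 CPM in controls (SD, n = 5) and at 13.54 ± 3.88 in cTKO without library 4 (n = 4).

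For the proliferation markers Top2a and Mki67, no difference past the FDR threshold was found here with or without the single libraries. DESeq2 gave neither gene a p with all libraries in either region. The paper's own edgeR analysis of these libraries called Top2a, Foxm1 and Ccnf higher in cTKO in both regions. In its qRT-PCR of other mice, Foxm1 and Top2a kept that direction without significance, and it does not name the region. In NCX, Top2a was at 2.14 ± 0.776 CPM in controls (SD, n = 5) and 2.001 ± 0.596 in cTKO without library 5 (n = 4), and Mki67 at 3.63 ± 1.24 and 3.26 ± 0.759. Their log2 fold changes went from 2.63 ± 1.003 and 1.45 ± 0.70 with all libraries to -0.05 ± 0.29 and -0.12 ± 0.26 without it. In HP, Top2a was at 1.79 ± 0.248 CPM in controls and 2.34 ± 0.376 in cTKO without library 4, a log2 fold change of 0.38 ± 0.19 (quasi-likelihood FDR 0.457), and Mki67 at 2.19 ± 0.594 and 2.47 ± 0.422, a log2 fold change of 0.18 ± 0.22 (FDR 0.819). Without library 4 the HP groups of Top2a overlapped only through cTKO library 5. The exact permutation test of Top2a, unadjusted, gave p = 0.0317 in HP with all libraries and 0.0635 without library 4. In NCX it gave 0.571 with all libraries and 0.873 without library 5.

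Whether the genotype difference differed between the regions was tested with the interaction of region and genotype. It was taken from one fit of all 20 libraries, which did not pair the regions. Of the 38 members 30 were tested and 0 were called, where 0.0564% of 14192 genes were, and 1 (Mcm6) had an unadjusted p under 0.05 in the direction of a lower fold change in HP, where 1.69% did. The difference of its log2 fold changes, HP minus NCX, was -1.11 ± 0.44 (FDR 0.9999 in edgeR's quasi-likelihood test). Without both libraries 27 members were tested and 0 were called, where 0.0779% of the genes were.

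Libraries of control mice were compared between the regions. RNA of each region was extracted with its own kit, so region and kit cannot be told apart in these differences. Of the 38 members 24 were tested in HP against NCX, and 9 were called, 3 higher in HP and 6 lower, where 59.1% of 13832 genes were called, 29.8% higher and 29.2% lower. This count lies below the background, and the reason was not tested. In this fit, which takes no account of the library number, the 3 higher genes were of the replication group. Mcm6 was at 11.9 to 16.9 CPM in HP against 5.42 to 7.69 in NCX, a log2 fold change of 1.25 ± 0.12 (quasi-likelihood FDR 4.53e-07). Tyms was at 1.68 to 2.23 against 0.980 to 1.61 CPM, 0.59 ± 0.19 (FDR 0.0151). Pcna was at 23.3 to 35.7 against 17.4 to 24.8 CPM, 0.49 ± 0.12 (FDR 0.00307), with 1 overlapping HP library.

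The 6 genes lower in the same fit came from the other roles, a split that did not hold with the library number as a block. Kif23, a kinesin of cytokinesis, was at 0.428 to 1.15 CPM in HP and at 1.25 to 3.72 in NCX, and fell by 1.45 ± 0.33 on the log2 scale (FDR 0.00138). Ccna2 was at 1.05 to 2.06 CPM against 2.26 to 3.79, a log2 fold change of -0.99 ± 0.23 (FDR 0.00149). Neither gene overlapped between the regions. Over the 24 members tested, 2 (Mcm6 and Tyms) lay above NCX in every HP library, where 22.3% of the genes did, and 3 (Ccna2, Ccnf and Kif23) lay wholly lower, where 21.7% did. Mki67 differed by -0.72 ± 0.25 (FDR 0.0238), Plk1 by -0.63 ± 0.22 (FDR 0.0247), Ccnf by -0.51 ± 0.14 (FDR 0.00604) and Ccne1 by -0.28 ± 0.09 (FDR 0.0188), all by the quasi-likelihood test. Ccna2 overlaps Exosc9 on the opposite strand, and Mki67 overlaps Gm45240 and Plk1 Gm44985, whose reads cannot be told apart without the strand setting. Top2a (-0.24 ± 0.24) and Foxm1 (0.20 ± 0.17) did not pass the threshold. With the library number as a block, which was taken to pair the control regions, 4288 of 13832 genes were called higher and 4205 lower. Of the members 12 were called, 5 higher and 7 lower. These were the same 9 and the kinetochore motor Cenpe (0.60 ± 0.21, FDR 0.0214), Mcm2 (0.35 ± 0.13, FDR 0.0297) and Mcm5 (-0.30 ± 0.12, FDR 0.0461), a spindle gene and a replication gene higher and a replication gene lower. Mki67 and Plk1 missed the threshold when some single libraries were left out (FDR up to 0.0796 without control NCX library 4 for Mki67 and 0.0698 without the same library for Plk1), as did Ccne1 without control NCX library 3 (FDR 0.0546).

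**Figure D4:**
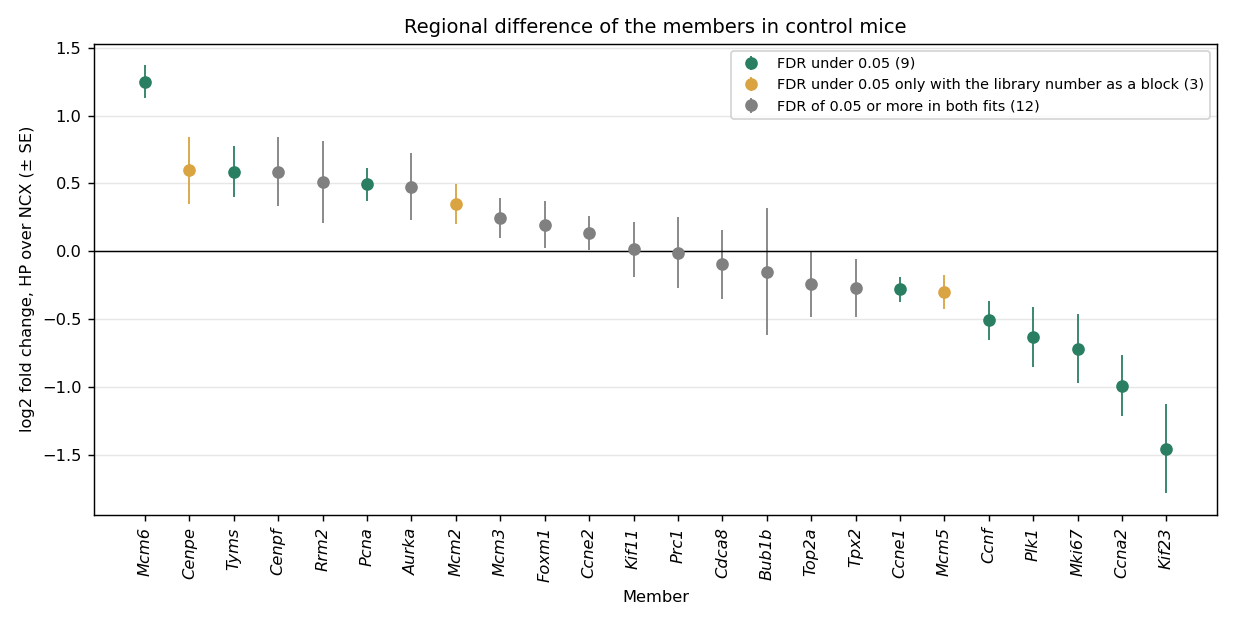
Log2 fold change of HP over NCX in control mice with its standard error for the 24 members tested, sorted by size; green points passed an FDR of 0.05, yellow points passed only with the library number as a block, and grey points in neither fit. The range is 1.25 for Mcm6 to -1.45 for Kif23.

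Other genes of the cycle were read from lists of 24 replication genes, 41 mitotic genes, 16 G1 cyclins, kinases, inhibitors and pocket proteins, and 16 genes of the E2F, B-Myb and MuvB families. In the genotype comparison of NCX, 18, 24, 14 and 13 of them were tested and 0 were called, where 0.188% of all genes were. Over the whole lists, fitted without the filter on low levels, the median log2 fold changes were 0.45, 1.09, 0.08 and 0.12 with all libraries, and -0.03, 0.17, -0.10 and 0.01 without library 5, against 0.004 and 0.003 over all genes. In HP, 18, 18, 13 and 13 were tested and 1 was called, where 0.489% of all genes were. This was E2f3, an activator of S phase genes, at 36.1 to 39.4 CPM in controls and 41.3 to 49.4 in cTKO, a log2 fold change of 0.33 ± 0.07 (quasi-likelihood FDR 0.0471). Its genotypes did not overlap, and without library 4 it was 0.34 ± 0.07 with an FDR of 0.0763, and without the filter on low levels no gene of its list was called. Without library 5, Ccnd2, a D cyclin of progenitors, was called in NCX (-0.48 ± 0.09, FDR 0.0285) and is named after its value was seen. It was at 60.5 to 72.5 CPM in the other 4 cTKO libraries, at 119 in library 5 and at 77.8 to 104.5 in controls.

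Between the regions in controls, the largest differences of these lists were Dtl (-2.73 ± 0.16) and Cdkn1a (-1.85 ± 0.09), lower in HP, and Nuf2 (1.49 ± 0.23) and Kif18a (0.69 ± 0.26), higher in HP. Dtl, which marks replication factors for degradation, was at 0.959 to 1.71 CPM in HP and 7.60 to 10.3 in NCX, and Cdkn1a, the p21 inhibitor of cyclin-dependent kinases, at 6.60 to 9.21 against 27.1 to 31.2. Nuf2 of the kinetochore was at 3.26 to 5.74 CPM against 1.04 to 2.42. No pair of groups overlapped for these 3 genes.

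Markers of cell types and lineages that hold dividing cells in the adult brain were read beside the members. The lists do not separate dividing cells from the other cells of a lineage, so their levels are not a measure of division. The adult neurogenic list (Dcx, Eomes, Sox11, Neurod1, Igfbpl1 and Sox4) summed to 88.9 to 104.6 CPM in control HP and 119.2 to 148.2 in cTKO HP, or to 147.2 without library 4. Of its 6 genes 5, all but Eomes, were tested in HP. In the quasi-likelihood test 3 rose, Dcx (0.67 ± 0.10, FDR 0.0143), Sox11 (1.04 ± 0.20, FDR 0.0456) and Igfbpl1 (1.76 ± 0.23, FDR 0.00487), where 0.489% of all genes were called. Dcx and Igfbpl1 also passed without library 4. In NCX the list was at 102.2 to 114.9 CPM in controls and 79.6 to 139.2 in cTKO, or to 104.3 without library 5, with 0 of 4 tested genes called. Oligodendrocyte precursor markers (5 genes) summed to 228 to 258 CPM in control HP and 181.6 to 249.4 in cTKO HP, or to 235.9 without library 4, with 0 called, and to 227 to 268 and 226 to 305 in NCX, or to 256.8 without library 5. Microglial markers (5 genes) were at 211 to 246 CPM in control HP and 180 to 234 in cTKO HP, or to 228.8 without library 4, and endothelial markers (4 genes) at 99.2 to 141 and 80.7 to 122, or to 107.8 without it. The part of these cells in the levels of Foxm1, Aurka, Ccnf and E2f3 was not tested.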

How the data were processed

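Poly-A RNA of 20 libraries, 5 for each genotype and region, was sequenced as single-end reads on TruSeq libraries, with a different RNeasy kit for each region. Per the labels, the authors aligned reads with STAR (version 2.5.4a) to mm10 and deposited raw HTSeq counts per gene. The HTSeq version, strand setting and annotation are not given in the sources used here. The 38 members and all other lists were chosen with earlier results of these data known. One gene of a marker list is not reported here and was left out of its list. All 24421 genes entered the library sizes. The main test was edgeR's quasi-likelihood test (edgeR 4.0.16, R 4.3.3, limma 3.58.1) with TMM scaling, genes exceeding 1 CPM in 5 or more libraries, and Benjamini-Hochberg adjustment over all genes tested. Each region was fitted on its own, and the interaction on all 20 libraries. Alternatives were DESeq2 1.42.0, the exact and likelihood ratio tests of edgeR, other filters and scaling, a block on library number, and each library left out. Exact permutation tests used log2 CPM with a prior count of 2, over 252 splits of 5 against 5. Both regions were taken from 5 mice of each genotype, but the files give no animal for a library beyond its number. The main region and interaction fits therefore did not pair the regions, and p-values measure the spread between these samples. In control mice, libraries of the same number deviated together in both regions (r of 0.133 to 0.339 over 14188 genes, every pair above 0.1), so the number was taken to pair them, although the labels do not say what it marks. Control libraries of unlike number gave r of -0.286 to 0.146, and number 5 (r = 0.133) lay within that range. In data simulated from the real means, 200 genes changed 2-fold were recovered at 89% in NCX, 85% in HP, 93.5% for region and 80% for the interaction. Of the calls 2.73%, 4.49%, 6.97% and 5.33% were false. The changed genes were drawn from all genes tested, and no library was made to stand apart. These shares therefore do not give the recovery for the members, which are low and have such libraries. Members named with values were Top2a, Mki67, Foxm1 and Ccnf, every member called by the main test in any comparison, the member of each role with the highest mean level and that with the largest ratio in a library that stood apart, and pathway genes called in a genotype fit or with the 2 largest differences in each direction between regions. Promoter sequences are from RefSeq (GRCm38.p6) and gene spans from GENCODE on mm10.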

Additional observations from a re-analysis of the deposited data

Results flagged for a closer look

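A library was singled out where its gap to the nearest other library of its group exceeded 0.71 of the range of the 5 libraries (Dixon's criterion at 95%). Of 80 groups examined 34 met this. Chance gives about 1 in 20 for independent groups, but the genes share the same libraries. Some genes were also named for their ratio in the libraries that stood apart. The count is therefore a description and not a comparison with chance. In cTKO NCX library 5 and cTKO HP library 4 there were 16 each. The summed level of the 38 members was 609.9 CPM in the NCX library and 486.6 in the HP library. Top2a was at 58.7 and 44.86 CPM, Mki67 at 36.9 and 30.62, and Foxm1 at 13.53 and 11.88. Among cyclins and kinases, Cdk1 was at 11.65 and 9.417 CPM, Ccna2 at 23.15 and 17.7, Plk1 at 11.8 and 8.565, Aurkb at 8.568 and 6.294, Bub1 at 9.395 and 6.72, and Bub1b at 18.26 and 13.82. Among spindle genes, Tpx2 was at 23.07 and 14.48 CPM, Kif20a at 17.21 and 11.07, Kif23 at 12.63 and 8.755, and Dlgap5 at 6.539 and 4.022. Rrm2 was at 15.78 and 13.96 CPM and Tyms at 10.9 and 8.281. The embryonic markers Hbb-y and H19 were high in the same libraries, and their part in these levels was not tested.

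The other 2 were in controls. Top2a was low at 1.362 CPM in control HP library 5, and Mcm6 was high at 7.689 CPM in control NCX library 2.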

How the results depend on the processing

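The number of members called in NCX was 0 and became 2 with DESeq2, and 1 under either the exact or the likelihood ratio test of edgeR. Without cTKO NCX library 5 it was 2 (Foxm1 and Mcm6) with the exact test, 2 (the same genes) with the likelihood ratio test and 1 (Mcm6) with DESeq2. Of all genes these called 192, 197 and 200 higher and 133, 139 and 166 lower. These combinations were chosen after seeing the data, as were those for HP. In HP the number of members called was 2 with DESeq2, 2 with the exact test and 2 with the likelihood ratio test. Without cTKO HP library 4 it was 1 (Ccnf) with DESeq2, where 205 of 13636 genes were called higher and 132 lower. It was 0 with the exact and likelihood ratio tests, where 145 of 13643 genes were called higher and 118 lower in each. In those tests Ccnf (FDR 0.0528 and 0.0516) and Uhrf1 (0.132 and 0.119) were no longer called. Leaving out 1 library gave 0 to 1 members in each region by the quasi-likelihood test. Mcm6 was called without cTKO NCX library 3, where 36 of 13794 genes were called higher and 84 lower. Ccnf was called without cTKO HP library 1, where 34 of 13655 genes were called higher and 21 lower. The library number was not taken to pair the genotypes (r of -0.00706 to 0.225 in NCX, above 0.1 for 3 of 5 pairs, and -0.133 to 0.14 in HP). The replicate block gave 0 calls in each, with a median log2 fold change of the members of 0.63 in NCX and 0.59 in HP, an unadjusted p under 0.05 for 4 members in NCX and 7 in HP where the fit without the block had 8 and 13, and 0.99 for Top2a in NCX. Without cTKO NCX library 5 the log2 fold change turned for Top2a (-0.055, up to 2.92 over the single libraries left out), Mki67 (-0.12, up to 1.71), Ccna2 (-0.21, up to 1.43), Kif23 (-0.18, up to 1.05), Tyms (-0.34, up to 1.34), Bub1b (-0.17, up to 1.74) and Tpx2 (-0.22, up to 1.10). Without cTKO HP library 4 it turned for Mcm6 (-0.12, up to 0.36), Tyms (-0.061, up to 0.89), Bub1b (-0.14, up to 1.66) and Tpx2 (-0.20, up to 0.89). Values near 0 turned for Ccne1 in NCX (-0.016 to 0.096), Pcna in HP (-0.13 to 0.023) and Bub1b between regions (-0.50 to 0.17). The cause was not tested. Of 520 single values of named members with an FDR, 486 kept direction and side of the threshold, 19 turned, 8 were no longer called and 7 became called. The region count ranged from 8 to 12 and the interaction count was 0 in each alternative run. Low counts limit many members: leaving the pair aside, 11 to 16 of 38 had a median under 1 CPM in a group, and 8 had a control NCX library with 3 counts or fewer.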

Other observations

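Among the other values, chosen after they were seen, Bub1b was lowest in library 1 of each group, at 0.328 CPM in control NCX, 0.136 in cTKO NCX, 0.603 in control HP and 0.370 in cTKO HP, where the next lowest library of each group was at 1.44, 0.9998, 1.34 and 1.15. Pttg1, the securin that holds sister chromatids together until anaphase, was low in library 2 of each group, at 11.2 CPM in control NCX, 11.1 in cTKO NCX, 11.4 in control HP and 13.2 in cTKO HP. It was also low in library 4 of both cTKO groups, at 10.3 CPM in NCX and 12.8 in HP, and at 18.98 to 28.4 in the remaining libraries. The labels do not say that a shared number marks one animal, and all genes of the cTKO libraries numbered 4 deviated with r = -0.0561, whereas NCX library 5 and HP library 4 gave r = 0.575. Cdkn1a was at 72.7 CPM in cTKO NCX library 3, the highest of the 20 libraries. These are values without a test.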
